A study of Zea mays with 48 samples.

Results

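The B73 peak list holds 3364 regions bound by ZmCCA1 in the maize inbred line B73, of 10136 regions in the lists of the 4 genotypes studied. Every region of the B73 list was taken, with no further choice by measured value. The study had called these regions as enriched in the same B73 samples at any of the time points, so membership of the list depends on measured values. B73 is the inbred whose genome served as the maize reference, and here it is a parent of the hybrids BM and MB, with Mo17 as the other parent. Aerial tissues of B73 seedlings were collected 5 days after planting, under 16 h of light and 8 h of darkness, at ZT3, ZT9 and ZT15, with ZT counted in hours from dawn. All 3 time points therefore lay in the light. No mutant, transgene or chemical treatment was part of these samples. Each time point had 2 biological replicates of chromatin immunoprecipitation (ChIP) and of input, for 6 ChIP and 6 input libraries. The antibody was raised against the MYB region of ZmCCA1b, and by the study's account it could also recognise full-length ZmCCA1a. Binding of the 2 homologs could therefore not be told apart.

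CCA1 is a MYB transcription factor at the core of the plant circadian clock. In Arabidopsis it accumulates around dawn and represses genes of the evening, such as TOC1 and GI, by binding to the evening element or the related CCA1-binding site in their promoters. TOC1 and other pseudo-response regulators repress CCA1 in turn, and the loop sets the daily timing of photosynthesis, starch and growth genes.

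For each peak the list gives log2(ChIP/Input) at the 3 time points, the enrichment of the immunoprecipitated DNA over input on a log2 scale. Each value combines the replicates of a time point. No value therefore has an error of its own, and no test over samples could be run. The numbers of reads behind the peaks are unknown. What follows describes the values of these peaks, and intervals on shares cover the counting of peaks only. Peaks share their libraries and are not replicates of a time point. The size of the daily change of a peak is called its swing, the highest of its 3 values minus the lowest. A swing or a difference of 1 is a 2-fold change in enrichment. Positions are those of the deposited list, on the AGPv2 build of the B73 genome.

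The sequence that CCA1 recognises is shown for a B73 target that the study also probed in vitro. For GRMZM2G129513, which encodes a malate dehydrogenase and is listed as mdh6 in RefSeq, the study designed a promoter probe for gel shift assays and a mutated copy of it. It is the only gene with a gel shift probe that also had a peak in the B73 list. The 29-base probe and its mutated form are shown 5′ to 3′ on the forward strand of the design, with capitals on the 8 bases that the mutation replaced, at positions 11 to 18 counted from the 5′ end.
GRMZM2G129513 probe: attaaatataAAAATATCtaaattcataa
GRMZM2G129513 mutated probe: attaaatataCCCCGCGAtaaattcataa
The replaced bases are most of an evening element, the A- and T-rich motif that CCA1 binds. The study reported binding of recombinant ZmCCA1b to this promoter in vitro, and ChIP-qPCR enrichment at the gene. The B73 peak of GRMZM2G129513 lay on chromosome 1 from 203170348 to 203171234, inside the gene, which runs from 203170067 to 203174226 on the minus strand. It ended 2992 bp short of the gene's start and began 281 bp from the gene's far end, so it did not cover the promoter. Its log2(ChIP/Input) was 0.93 at ZT3, 2.29 at ZT9 and 1.41 at ZT15. The highest value stood at ZT9, and the swing was 1.36. No peak of another list overlapped it.

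Enrichment differed about 2-fold between the highest and the lowest time point at the median B73 peak, and the time of the highest value was spread over all 3 time points. The swing had a median of 0.99 (quartiles 0.63 and 1.43), which is a 1.99-fold change in enrichment. It ran from 0.01 to 3.47, or 11.0-fold. A swing of at least 1 was seen at 1669 peaks (49.6%, Wilson 95% interval 47.9% to 51.3%), and 217 peaks (6.45%) had a swing of at least 2. A swing under 0.25 was seen at 172 peaks (5.11%, interval 4.42% to 5.91%).

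**Figure D1:**
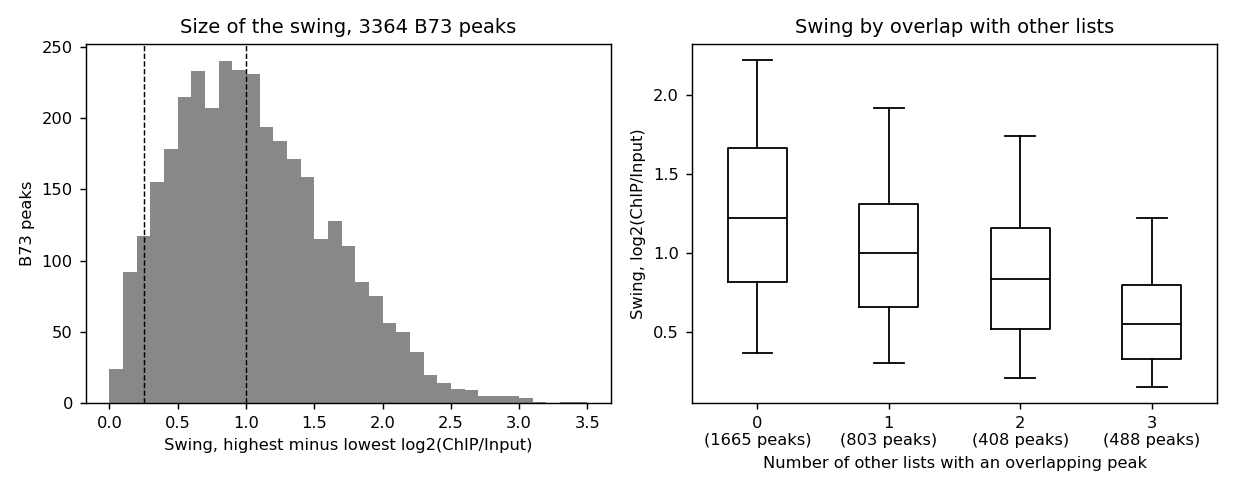
Left, number of B73 peaks in each 0.1-wide class of swing, with dashed lines at 0.25 and 1. Right, swing of the B73 peaks by the number of other genotypes' lists that have an overlapping peak (line, median; box, quartiles; whiskers, the central 90%). The histogram has a broad hump around its median of 0.99, and the medians on the right are 1.22 with 0 other lists and 0.55 with 3.

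The median log2(ChIP/Input) over the list was 1.48 at ZT3, 1.56 at ZT9 and 1.33 at ZT15. The quartiles overlapped widely, from 0.94 to 1.92 at ZT3, from 1.07 to 1.93 at ZT9 and from 0.84 to 1.76 at ZT15. The medians over the list therefore differed little between time points, while values at single peaks differed more. Libraries were equalised in depth, so these medians do not measure total binding over the day. Single values also carry a measurement error of unknown size. A value of at least 1 was reached at all 3 time points by 1490 peaks (44.3%), at 2 by 1055 and at 1 by 741. Among the peaks that reached it at a single time point, 258 did so at ZT3, 315 at ZT9 and 168 at ZT15. The remaining 78 peaks reached it nowhere. ChIP was at or below input at 1 or more time points for 288 peaks (8.56%), and for 52 of these at 2 time points. No peak was at or below input all day.

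Each pair of time points was compared at every peak. ZT3 exceeded ZT9 by at least 1 at 427 peaks (12.7%), and ZT9 exceeded ZT3 at 519 (15.4%). ZT9 exceeded ZT15 at 568 (16.9%), against 280 (8.32%) in the opposite direction. ZT3 exceeded ZT15 at 508 (15.1%), against 343 (10.2%). In the values as deposited, fewer peaks were thus raised at ZT15 than at either earlier time, and the order turned when the time points were centred. Values within 0.25 of each other were found at 738 peaks for ZT3 and ZT9, 789 for ZT9 and ZT15, and 803 for ZT3 and ZT15. Across the 3364 peaks the values at different times were only weakly related. Pearson's r was 0.14 for ZT3 and ZT9 (Spearman's rho 0.03), 0.23 for ZT9 and ZT15 (rho 0.11) and 0.23 for ZT3 and ZT15 (rho 0.14). These peaks share the libraries of each time point and were called as regions enriched at any of them. The part that this selection has in the weak relations and in the size of the swings was not tested.

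By the time of the highest value, 1210 peaks were at ZT3 (36.0%, interval 34.4% to 37.6%), 1270 at ZT9 (37.8%, interval 36.1% to 39.4%) and 884 at ZT15 (26.3%, interval 24.8% to 27.8%). The lowest value fell at ZT15 for 1307 peaks, at ZT3 for 1092 and at ZT9 for 965. All 6 orders of the time points were common. ZT9 over ZT3 over ZT15 was the most frequent with 663 peaks, and ZT15 over ZT3 over ZT9 the least with 399. No peak had a tie. The lead of the highest value over the second had a median of 0.52. It was under 0.1 for 373 peaks (11.1%), whose order rests on very small differences, and at least 1 for 661 (19.6%). The 3 classes differed little in level. The median highest value was 1.97 in the ZT3 class and 1.94 in both others. Leads of at least 1 made up 20.5% of the ZT3 class, 21.8% of the ZT9 class and 15.4% of the ZT15 class.

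These shares depended on how the time points were scaled. When each time point was centred on its own median over the list, which moved ZT15 up by 0.12 and ZT9 down (a shift of -0.10), the share highest at ZT9 was 32.1% and that at ZT15 was 33.4%. ZT15 then exceeded ZT9 by at least 1 at 13.8% of peaks, and ZT9 exceeded ZT15 at 10.6%, so the direction of that imbalance turned. The other pairs turned as well. ZT15 exceeded ZT3 at 13.4% and the reverse held at 11.6%, while ZT3 exceeded ZT9 at 14.6% and the reverse held at 13.2%. The share highest at ZT3 was 34.5%. Which time point of a pair is more often the higher by 1 over the whole list is therefore a statement on the values as deposited, and it does not hold after centring for any of the 3 pairs.

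The peaks with the sharpest single times differed by target. At ZT9 the largest lead belonged to a peak inside GRMZM2G401062, on chromosome 2 from 53792302 to 53792804, with -0.40 at ZT3, 2.1 at ZT9 and -0.68 at ZT15. Its enrichment was above input at ZT9 alone. GRMZM2G059753, with a peak upstream of the gene, had the same form at -0.47, 1.90 and -0.50. A peak inside GRMZM2G148867 held 0.24, 2.75 and 0.48. A peak with no assigned gene on chromosome 8 from 113302854 to 113303459 completed the group with -0.35, 1.98 and -0.30. At ZT15 the largest lead was inside GRMZM2G017351, on chromosome 2 from 209922154 to 209922851, with 0.20 at ZT3, 0.42 at ZT9 and 2.77 at ZT15. The peak inside GRMZM2G113325 had 0.42, 0.20 and 2.75 at the same times. Upstream of GRMZM2G045257 the values were 0.21, -0.31 and 2.53. A peak with no assigned gene on chromosome 2 from 424866 to 425257 had 0.00, 0.19 and 2.49. Each of these peaks was at 0.42 or below at both earlier times. At ZT3 the largest lead was at a peak with no assigned gene, on chromosome 2 from 81546349 to 81547367. It had 1.95 at ZT3, -0.35 at ZT9 and -0.24 at ZT15. GRMZM2G112672, listed as CBL3, a calcineurin B-like calcium sensor, had a peak inside the gene with 2.13, -0.12 and 0.14. A second peak of the same gene had 2.02, 0.60 and 0.42, so both of its peaks were morning peaks. The peak over GRMZM2G379374 had 2.01, 0.01 and -0.13.

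The largest swings joined a high value with a value below input. A peak upstream of GRMZM2G336077, on chromosome 9 from 118113853 to 118114406, had 2.8 at ZT3, -0.67 at ZT9 and 0.77 at ZT15, a swing of 3.47. The peak inside GRMZM2G132978 had 1.96, 2.87 and -0.47, a swing of 3.34. It is the only peak among the 6 largest swings that overlapped a peak of every other list, while the other 5 overlapped none. A peak with no assigned gene on chromosome 8 from 5509028 to 5509483 had 2.24, -0.94 and 0.39. GRMZM5G851815 had -0.68, 2.37 and 1.37, and GRMZM5G870572 had -0.75, 2.27 and 0.45. GRMZM2G304915 had -1.02, 1.25 and 2.02, higher at each later time. All 6 were narrow, with the widest spanning 553 bp against a list median of 1024 bp.

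Narrow peaks had larger swings than wide ones. The list was split by width into 5 classes of nearly equal number. In the narrowest class (346 to 705 bp) the median swing was 1.38, and 475 of 673 peaks (70.6%) had a swing of at least 1, against 49.6% over the list. The medians of the next classes were 1.18, 1.01 and 0.92. In the widest class (1569 to 18630 bp) the median was 0.66, and 145 of 673 peaks (21.5%) reached 1. Spearman's rho between width and swing was -0.39 over the 3364 peaks. Width was set by the peak caller from the same libraries. A value averaged over a shorter region can rest on fewer reads, and the part that read numbers have in this relation was not tested. The share highest at ZT3 was 42.9% in the narrowest class and 36.0% in the widest.

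Flat peaks were found at most levels of binding, with a smaller share among the higher peaks. Of the 172 peaks with a swing under 0.25, the median highest value was 1.75, against 1.95 over the list, and the median lowest 1.58. They made up 15.4% of the peaks that never reached 1, 6.49% of those with a highest value of 1.5 to 2, 2.69% at 2 to 2.5 and 0 of the 46 at 3 or more. In the class with a swing of 2.5 or more (41 peaks), the median highest value was 2.29 and the median lowest -0.54. Swing followed the lowest value (rho -0.76) more closely than the highest (rho 0.26), and both are part of its definition. Peaks were selected on enrichment, and the part that this selection has in the contrast was not tested. The 95 peaks that stayed at 2 or above all day included 16 with a swing under 0.25. The flattest of these, on chromosome 1 from 234617047 to 234620518 over the start of GRMZM2G121624, had 2.02 at ZT3, 2.06 at ZT9 and 2.04 at ZT15. A peak upstream of GRMZM2G450700, less than 100 kb away, had 2.45, 2.36 and 2.44. GRMZM2G017901 had 2.20, 2.23 and 2.12, GRMZM2G448868 had 2.26, 2.18 and 2.30, and GRMZM2G176793 had 2.17, 2.05 and 2.17. All 5 overlapped a peak in every other list. Their enrichment was high and differed over the day by less than 0.12.

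Swing went with how widely a region was bound. The B73 peaks were set against the lists of Mo17, BM and MB, where an overlap of 1 bp counted. The 1665 peaks that met no other list had a median swing of 1.22, the 803 that met 1 list 1.0, the 408 that met 2 lists 0.84 and the 488 that met all 3 lists 0.55. A swing of at least 1 was found at 63.7% of the first class and at 12.3% of the last, against 49.6% over the list. In the last class 77 peaks (15.8%) were flat, against 5.11% over the list. The highest value had a median of 1.90 in the first class and 2.08 in the last, while the lowest had medians of 0.68 and 1.54. The median width was 937 bp in the first class and 1324.5 bp in the last. Restricted to peaks of 700 to 1500 bp, a choice made after seeing the data, the shares with a swing of at least 1 were 61.3% and 17.6%. These shares thus still differed within this span of widths. Widths were not matched between the classes, and the part that width and read numbers have in the relation was not tested. The time of the highest value also differed. ZT9 was highest for 40.8% of peaks in no other list and for 21.3% of those in all lists, and ZT15 for 24.4% and 36.5%.

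At regions shared with another list, the times of the highest value were compared. A B73 peak met exactly 1 Mo17 peak at 923 regions, and the time of the highest value was the same at 423 (45.8%). For BM it was the same at 477 of 1177 (40.5%), and for MB at 375 of 895 (41.9%). Over whole lists, the shares highest at ZT3, ZT9 and ZT15 were 36.0%, 37.8% and 26.3% in B73. They were 28.6%, 48.4% and 23.0% in Mo17, 63.2%, 31.1% and 5.69% in BM, and 51.7%, 35.0% and 13.3% in MB. Such shares alone give some agreement, and its size was not computed. The difference of ZT3 and ZT15 in B73 was weakly related to that in Mo17 across the 923 regions (Pearson's r 0.18, Spearman's rho 0.21), and more weakly to that in BM (r 0.06) and MB (r 0.11). The highest value was more alike, with r of 0.74 for both Mo17 and MB and 0.69 for BM. The genotypes had separate libraries, down-sampled by the study to similar depth, and their reads were not mapped to the same genomes. The regions are not independent of each other. In these values the highest value of a region was thus more alike between genotypes than its timing. A few very strong regions can raise Pearson's r of the highest value, and a difference carries the error of both its values. The part that these have in the contrast was not tested.

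Peaks that reached a value of 3 were mostly highest at ZT15. A value of at least 3 was reached by 46 peaks. Just inside this limit lay 3.01 at GRMZM2G369931, and just outside it 2.99 at a peak with no assigned gene on chromosome 1. Of these 46, 36 were highest at ZT15 (78.3%), 7 at ZT3 and 3 at ZT9, against 26.3% at ZT15 over the whole list. Their median log2(ChIP/Input) was 2.67 at ZT3, 2.84 at ZT9 and 3.44 at ZT15. The peaks were taken by their highest value, and 26 of the 46 reached 3 at ZT15 alone. Another 2 reached it at ZT3 alone and 3 at ZT9 alone. The share at ZT15 and these medians therefore follow in part from the choice and only describe these peaks. All but 6 stayed at 2 or above all day. The share at ZT15 was 36.3% for highest values of 2.5 to 3 and 22.5% for 2 to 2.5. Several of the 46 lie close together, so a single peak was also taken for each run of strong peaks under 100 kb apart. Of the 34 runs, 24 were highest at ZT15 (70.6%). After centring each time point, 80.4% of the same 46 peaks, still chosen on the values as deposited, were highest at ZT15. With a limit of 2.5 in place of 3, the share was 44.9%. These 3 settings were chosen after seeing the data. At the other end, 52 of the 78 peaks that never reached 1 were highest at ZT3 (66.7%, against 36.0% over the list).

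**Figure D2:**
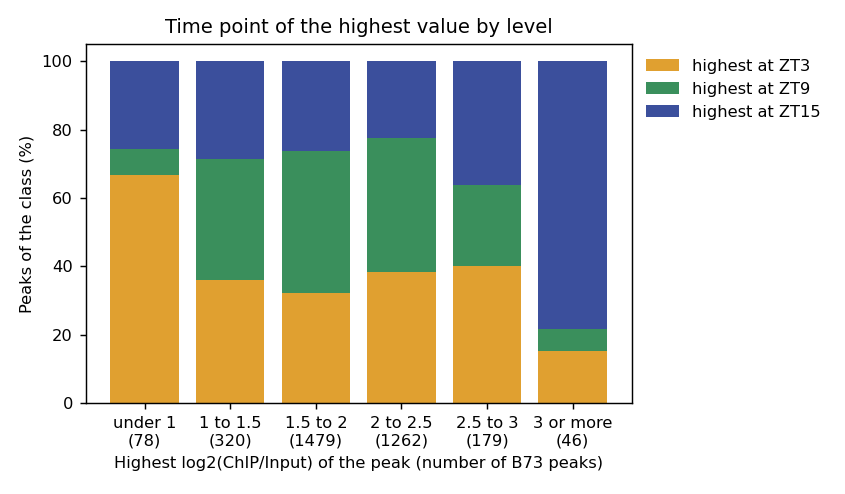
Share of B73 peaks (%) whose highest log2(ChIP/Input) fell at ZT3, ZT9 or ZT15, in classes of that highest value; the number of peaks of each class is in brackets. The share at ZT15 lies between 22.5% and 36.3% in the classes under 3 and is 78.3% for the 46 peaks of 3 or more. Of those 46, 26 reached 3 at ZT15 alone.

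Of the 8 strongest peaks, 4 were highest at ZT3 and 4 at ZT15. The strongest of all lay on chromosome 1 from 62370845 to 62371897 with no gene assigned, at 7.25 at ZT3, 6.47 at ZT9 and 6.30 at ZT15. A peak on chromosome 6 from 138678780 to 138680139, upstream of GRMZM2G066485, had 5.53, 4.95 and 4.54. On chromosome 8 from 166826527 to 166828572, upstream of GRMZM2G168077, the values were 5.47, 4.63 and 4.35. The peak on chromosome 6 from 140854235 to 140855383, upstream of GRMZM2G020929, had 5.27, 4.75 and 4.26. These 4 peaks shared the order ZT3 over ZT9 over ZT15, and none lay within 2 kb of its assigned gene. All 4 overlapped a peak in every other list. The chromosome 1 region had 7.08, 6.94 and 5.78 in Mo17, 8.40, 6.39 and 4.64 in BM, and 8.46, 6.52 and 6.28 in MB.

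The other 4 were highest at ZT15. The peak inside GRMZM2G394732, on chromosome 5 from 209992555 to 209993808, had 4.51 at ZT3, 4.27 at ZT9 and 5.35 at ZT15. By the study's annotation this gene encodes photosystem II reaction center protein Z, a small subunit of the complex that splits water, which plants usually encode in the chloroplast genome. Upstream of GRMZM2G090126, on chromosome 1 from 203882551 to 203882949, the values were 3.52, 3.89 and 4.75. A peak inside GRMZM2G455403 on chromosome 10 had 2.81, 3.08 and 4.03, and a peak inside GRMZM2G358180 on chromosome 5 had 3.25, 3.38 and 3.99. All 4 had a lead of between 0.60 and 0.95 at ZT15.

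Some strong peaks lay in runs that were all highest at ZT15. Peaks of a run lie close together and are not independent of each other. On chromosome 5, 4 strong peaks lay between 209971788 and 210002122, all highest at ZT15. A weaker peak beside them, inside GRMZM2G427369, which the study annotates as a photosynthetic reaction center protein, had 2.13 at ZT3, 1.61 at ZT9 and 2.38 at ZT15. On chromosome 1, 3 strong peaks lay between 203882551 and 203918074, also all highest at ZT15. GRMZM2G448142 in that stretch encodes an ATP synthase β-subunit by the study's annotation, and its pair of peaks had 1.96, 2.23 and 2.69 inside the gene and 1.95, 2.07 and 2.44 upstream. Whether reads from the chloroplast genome enter the values of these runs was not tested. A further 3 strong peaks highest at ZT15 lay on chromosome 1 between 130877162 and 130912033, including 3.74 at ZT15 inside GRMZM2G475437. On chromosome 3, GRMZM2G444541 carried 2 of them, with 3.07, 3.14 and 3.85 in the first and 2.41, 2.48 and 3.04 in the second. Strong peaks outside this pattern included a peak with no assigned gene on chromosome 1, which had 3.11, 1.47 and 0.68. Another, inside GRMZM2G085630, had 1.14 at ZT3, 3.17 at ZT9 and 0.21 at ZT15.

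Of the 46 strong peaks, 42 overlapped a peak in every other list and 3 overlapped none. At 41 of them exactly 1 peak was met in each list. There the highest value fell at ZT15 for 35 loci in B73 and for 33 in Mo17, but for 0 in BM and 1 in MB. ZT3 was highest for 33 of these loci in BM and 40 in MB. The medians in B73 were 2.68, 2.87 and 3.51 in order of time, and those in BM were 2.62, 2.23 and 1.87. The loci were chosen on the B73 values, so the B73 counts and medians only describe that choice. The peak inside GRMZM2G394732 had 4.27, 4.60 and 5.27 in Mo17, 2.76, 2.30 and 1.98 in BM, and 2.84, 2.12 and 2.33 in MB. The medians of the lists moved with this contrast. Over all peaks of a list, the ZT15 median stood at 1.33 for B73 and 1.17 for Mo17, but at 0.82 for BM and 0.95 for MB. The ZT3 medians in the same sequence were 1.48, 1.34, 1.79 and 1.52. When each time point was centred on its list's median, ZT15 was highest at 36 of the 41 loci for each inbred, at 24 for BM and at 29 for MB. The difference between genotypes in the deposited values was thus much smaller after centring. Centring removes any change over time that the peaks of a list share, whether of scaling or of binding. These cannot be told apart here, and the lists hold different peaks. The difference has 1 combined value per genotype and time point and was not tested.

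**Figure D3:**
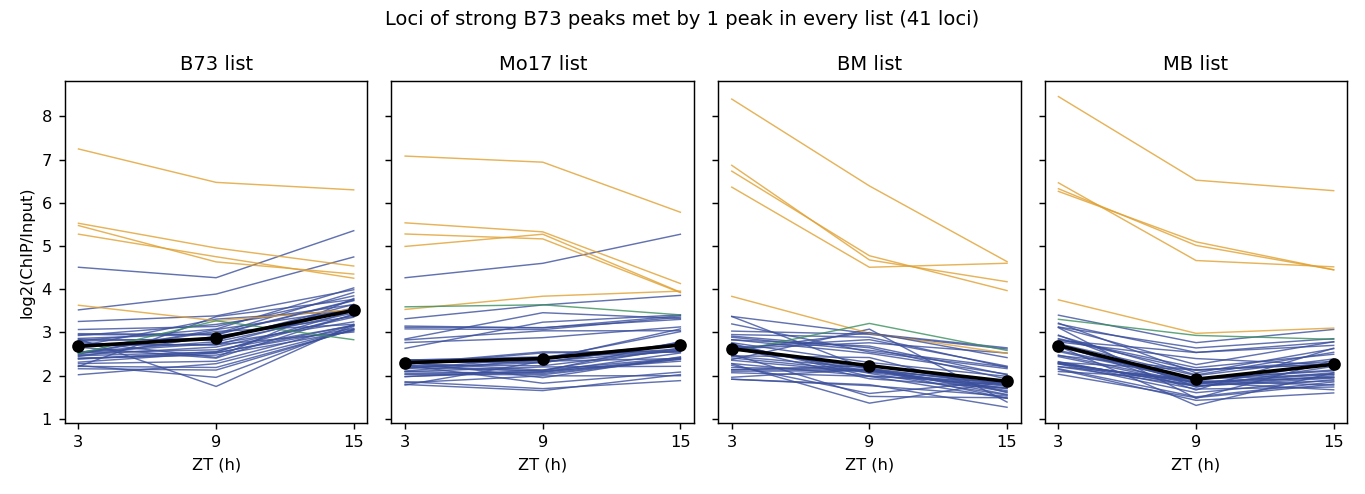
Day courses of log2(ChIP/Input) at the 41 loci of strong B73 peaks (3 or more) that met exactly 1 peak in each list, with ZT in hours on the x axis. Thin lines are loci, coloured by their highest time point in B73 (yellow ZT3, green ZT9, blue ZT15), and the black line is the median, which is 3.51 at ZT15 in B73 and 1.87 in BM.

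Most B73 peaks lay within genes. By the assigned gene model, 2458 peaks (73.1%) lay inside the gene, 93 covered its start and 30 the whole gene. A further 124 lay up to 2 kb upstream and 279 between 2 and 10 kb upstream. No assigned peak covered only the far end of a gene or lay downstream of it. The remaining 380 peaks (11.3%) had no gene. Genes with a peak on them had a median span of 6803 bp, which is room for peaks away from the start. Among peaks on genes, 587 of 2581 (22.7%) were centred in the first of 5 equal parts of the gene, 785 in the next, then 670, 405 and 134 (5.19%) toward the far end. These counts take in peaks across a gene's start, while none across only its far end was assigned. The part that the study's gene assignment has in the fall toward the far end was not tested. The median swing ran from 0.96 in the first part to 1.08 in the last.

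Position went with timing and level. Peaks at gene starts had a median swing of 0.77, with a swing of at least 1 at 40 of 93 (43.0%). Flat peaks made up 11.8% of that class and 11.3% of peaks up to 2 kb upstream, against 3.82% inside genes and 5.11% over the list. Inside genes ZT9 was the most frequent time of the highest value (40.9%), followed by ZT3 (33.1%) and ZT15 (26.0%). Among peaks with no gene ZT3 led with 46.8%, and ZT9 had 24.7%. Peaks with no gene were also weaker, with a median highest value of 1.66 against 1.97 inside genes. After centring, the ZT3 share of peaks with no gene was 40.5%, and that of peaks inside genes was 32.6%.

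The share of peaks with a swing of at least 1 ran from 39.8% on chromosome 9 to 56.7% on chromosome 10. Median swings ran from 0.82 on chromosome 9 (349 peaks) to 1.12 on chromosome 10 (217 peaks). The share highest at ZT9 ran from 34.7% on chromosome 9 to 43.6% on chromosome 7, and that highest at ZT3 from 30% on chromosome 7 to 42.1% on chromosome 9. These shares were not tested against each other.

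The list assigned 2984 peaks to 2521 genes, of which 393 (15.6%) had several peaks. There were 330 genes with 2 peaks, 56 with 3 and 7 with 4. At 160 of the 393 (40.7%) all peaks were highest at the same time point, 63 at ZT3, 63 at ZT9 and 34 at ZT15. At 21 genes the peaks covered all 3 time points. Of 463 pairs of neighbouring peaks of a gene, 192 (41.5%) shared the time of the highest value. The difference of ZT3 and ZT15 was unrelated between them in size, with a Pearson's r of 0.01, and r was 0.10 for ZT3 and ZT9. In 62 genes a peak with a swing under 0.5 stood beside a peak with a swing of at least 1. The time of the highest value thus often differed between peaks of a gene. Neighbouring peaks over 1000 kb apart shared it in 34.4% of pairs. These times rest on values without an error, and the part of measurement error in the differences was not tested.

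Distance gave a similar account. Neighbouring peaks under 1 kb apart shared the time of the highest value in 112 of 243 pairs (46.1%, interval 39.9% to 52.4%). From 1 to 3 kb the share was 50.7% of 219 pairs, and from 3 to 10 kb it was 46.3% of 216. From 10 to 100 kb it was 38.1% of 420, and beyond 1000 kb it was 34.4% of 625 (interval 30.8% to 38.2%). Neighbours within 10 kb thus shared their timing somewhat more often than distant ones.

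The 7 genes with 4 peaks ranged from full accord to none. At GRMZM2G327394, on chromosome 7 from 171749017 to 171788887, all 4 peaks lay inside the gene and were highest at ZT9. Their values at ZT9 were 2.00, 1.95, 1.70 and 2.56, with ZT3 between 0.88 and 1.28 and ZT15 between 1.05 and 1.91. Upstream of GRMZM2G072938 on chromosome 2, 4 peaks had small swings of 0.18 to 0.58, and 3 of them were highest at ZT3. GRMZM2G316191 had 3 peaks highest at ZT3, of 1.62, 1.82 and 2.08, and another with 0.92 at ZT3 and 1.86 at ZT15. At GRMZM2G092261 the 4 peaks covered all times. A far upstream peak had 1.80, 2.29 and 0.34, the next 1.98, 1.68 and 2.05, the peak nearest the start 1.42, 1.05 and 2.38, and the peak inside the gene 1.93, 0.53 and 1.13. GRMZM2G350626 held a peak with -0.14, 2.07 and 0.74 and, within 13 kb of it, a nearly flat peak with 1.59, 1.58 and 1.45. GRMZM2G409865 had 3 peaks highest at ZT3 or ZT9 and another with 0.80, 1.03 and 2.13. GRMZM2G109848 had peaks highest at ZT3, ZT9, ZT3 and ZT15 along its upstream region.

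**Figure D4:**
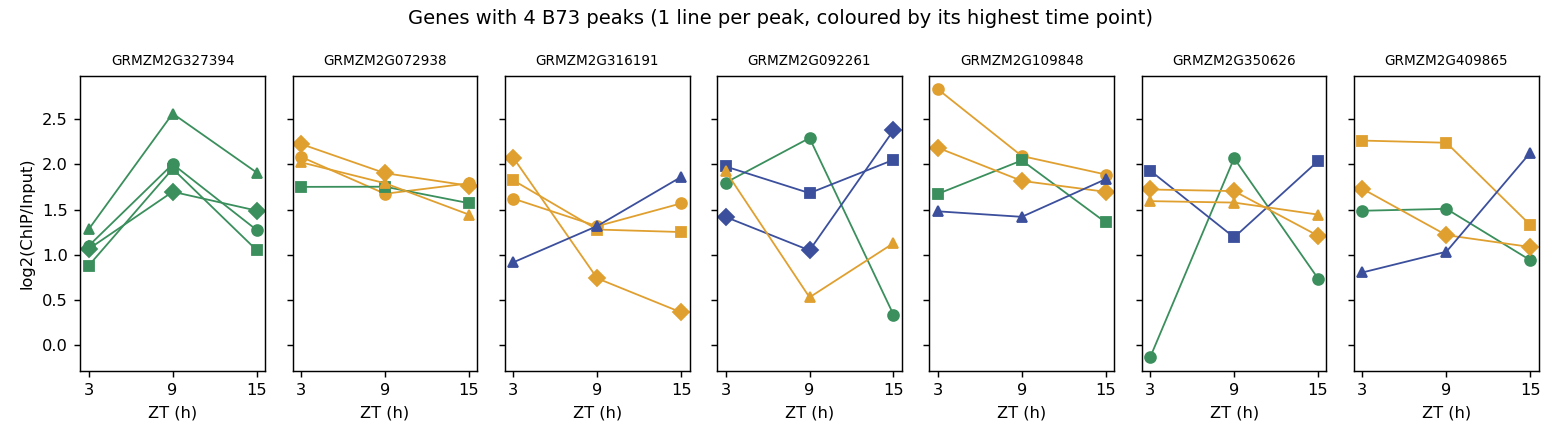
Day courses of log2(ChIP/Input) for the 7 genes with 4 B73 peaks, 1 line per peak in order of position (circle, square, diamond, triangle), coloured by its highest time point (yellow ZT3, green ZT9, blue ZT15), with ZT in hours. All 4 lines of GRMZM2G327394 top at ZT9, while those of GRMZM2G092261 top at all 3 time points.

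Peaks of a gene could run in opposite directions. In GRMZM2G025123, listed as TATC, a subunit of the twin-arginine translocase that moves folded proteins into the thylakoid, the peak nearer the start had 2.08 at ZT3, 1.11 at ZT9 and 1.07 at ZT15. The peak about 6 kb further into the gene had 0.49, 1.35 and 2.54. GRMZM5G858094 had 1.57, 1.31 and 2.05 at its start, 1.90, 1.85 and -0.33 at the next peak, and -0.06, 0.68 and 2.59 at the last. GRMZM2G049141 had 0.62, 1.24 and 2.44 in its first peak on the map, then 1.69, 1.83 and 0.38, and 1.72, 0.57 and 0.73. Peaks with their lowest and with their highest value at ZT15 thus stood only a few kb apart.

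Of 17 genes that the study takes up by name, 5 had a B73 peak. They are GRMZM2G129513, GRMZM2G394732, GRMZM2G427369 and GRMZM2G448142, described above, and GRMZM2G398288, a putative phospholipid-transporting ATPase. The peak inside GRMZM2G398288, on chromosome 9 from 131376566 to 131379195, had 1.39 at ZT3, 2.02 at ZT9 and 0.96 at ZT15. The other 12, among them ZmCCA1a, ZmCCA1b, gi1, gi2, ZmPRR59 and ZmTOC1a, had no assigned peak in the B73 list. Their absence from the list says only that no peak passed the study's criteria in B73. In gel shift assays the study found recombinant ZmCCA1b bound to promoter fragments of gi1, ZmPRR59 and ZmTOC1a. The study also displayed ChIP-seq enrichment at putative clock genes, and at gi1, for all genotypes and time points. It also reported ChIP-qPCR enrichment at GRMZM2G121612 and GRMZM2G033885, which are among the 12.

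RefSeq entries matched 1626 of the 2521 target genes, and 86 genes with an informative symbol were placed in 11 groups by what the symbol names. The groups were made with values of these data known, so their shares describe the picked genes and not a class of genes. The groups hold 102 peaks, of which 62 (60.8%) had a swing of at least 1, against 49.6% over the list. They had 36 peaks highest at ZT3 (35.3%, against 36.0% over the list), 46 at ZT9 (45.1%, against 37.8%) and 20 at ZT15 (19.6%, against 26.3%). The groups hold between 4 and 20 peaks each, and their counts were not tested.

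**Figure D5:**
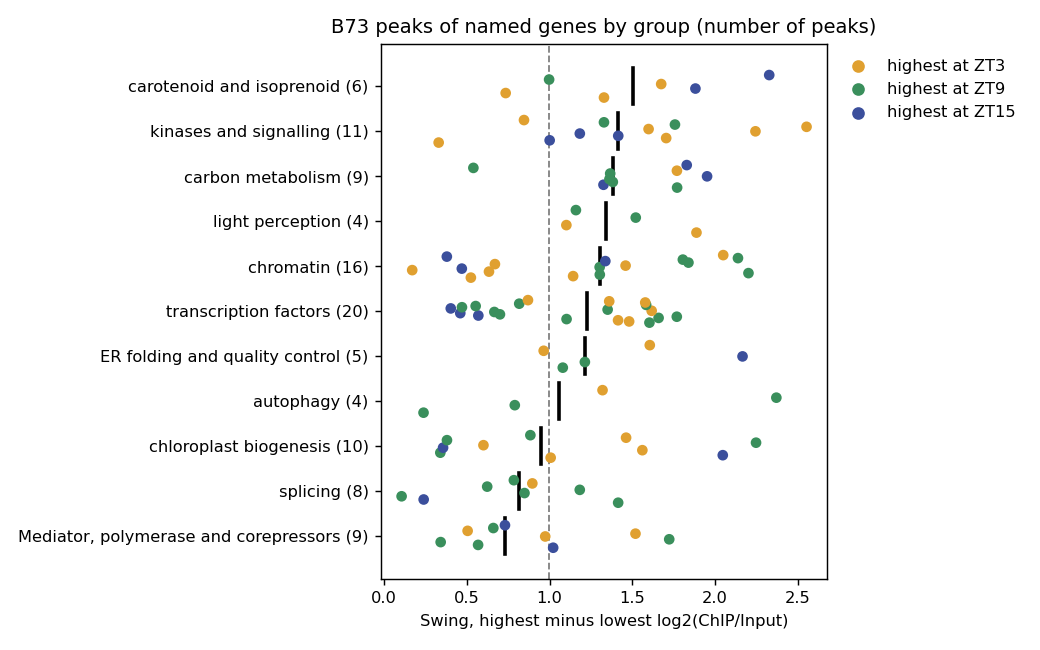
Swing of each B73 peak of 86 named genes in 11 groups (number of peaks in brackets), coloured by its highest time point, with a black bar at the group's median and a dashed line at the list's median of 0.99. Carotenoid and isoprenoid genes have a median of 1.5 and Mediator, polymerase and corepressor genes one of 0.73, and each group spans a wide range.

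The 3 light perception genes, picked with values known, had peaks highest at ZT3 or ZT9 in these data. All 4 peaks of the 3 genes had a swing of at least 1, which 49.6% of the list had. The blue-light receptor gene phot1 (GRMZM2G001457), which controls phototropism, had a pair of peaks with lower values at each later time. They held 1.78, 1.19 and -0.11 in the first and 2.05, 1.63 and 0.94 in the second. PhyB1 (GRMZM2G124532), which encodes a red-light receptor, had 1.63, 1.99 and 0.83. HO1 (GRMZM2G101004), a heme oxygenase needed for the phytochrome chromophore, had 0.29, 1.78 and 0.26. None of the 4 was highest at ZT15, where 26.3% of the list was.

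Carbon metabolism genes held 9 peaks in 9 genes, with a median swing of 1.38, and 8 of the 9 reached 1, against 49.6% over the list. Highest values fell at ZT9 for 5 (55.6%, against 37.8%), at ZT15 for 3 (33.3%, against 26.3%) and at ZT3 for 1 (11.1%, against 36.0%). ZT9 peaks included me2 (GRMZM2G122479), listed as a malic enzyme gene, with 0.44, 1.82 and 0.83, and the sucrose transporter gene sut4 (GRMZM2G307561) with 0.48, 1.85 and 0.50. PDHE1-B (GRMZM2G043198), a subunit of pyruvate dehydrogenase, had -0.04, 1.73 and 0.78. The cytosolic malate dehydrogenase gene CYTMDH (GRMZM2G415359) was the exception in swing, with 2.00, 2.49 and 1.95. Peaks highest at ZT15 lay in pep4 (GRMZM2G473001), a phosphoenolpyruvate carboxylase gene, with 0.20, 0.13 and 1.96, and in the plastid glucose transporter gene pGlcT (GRMZM2G153704), with -0.04, 1.47 and 1.91. ZmSPP1 (GRMZM2G055489), which completes sucrose synthesis as a phosphatase, had 0.23, 1.39 and 1.56. The phosphoglycerate kinase gene Pgk-2 (GRMZM2G382914) was the only member highest at ZT3, with 2.37, 0.60 and 1.89.

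Genes of the carotenoid and isoprenoid pathway had 6 peaks in 5 genes and a median swing of 1.5. Highest values fell at ZT3 for 3 (50%, against 36.0% over the list) and at ZT15 for 2 (33.3%, against 26.3%). At ZT9 there was 1 (16.7%, against 37.8%). Hds1 (GRMZM2G137409), a late enzyme of the plastid isoprenoid pathway, had neighbouring peaks of opposite course, with 0.65, 1.02 and 2.53 in the first and 2.37, 0.69 and 1.24 in the second. HDR (GRMZM2G027059), the last enzyme of that pathway, had 1.93, 1.69 and 0.60. The phytoene desaturase gene pds1 (GRMZM2G410515) had 1.28, 1.69 and 0.69, while zds1 (GRMZM2G454952), for the next desaturase, had -0.33, then 0.95 and 2.00. CCD1 (GRMZM2G057243), a carotenoid cleavage enzyme, had 1.84, 1.10 and 1.5.

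Chloroplast biogenesis genes had 10 peaks in 8 genes, with a median swing of 0.95. The paired receptor genes of the chloroplast import machinery differed. toc34A (GRMZM2G159777) had 1.29, 2.17 and 1.28, and toc34B (GRMZM2G157157) had 2.22, 1.12 and 0.76. Among genes for splicing of chloroplast introns, crs1 (GRMZM2G078412) had 2.11, 1.24 and 0.55, while CRS2 (GRMZM2G132021) had 1.24, 1.61 and 1.45 and rnc1 (GRMZM2G035820) had 0.94, 1.28 and 1.03. FtsH2A (GRMZM2G110408), a subunit of the protease that clears damaged photosystem proteins, had 1.55, 1.93 and -0.32. KEA2 (GRMZM2G093643), a potassium antiporter of the chloroplast envelope, had 2 peaks with swings of 0.36 and 0.60.

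Chromatin genes had 16 peaks in 15 genes, and 10 of the 16 had a swing of at least 1 (62.5%, against 49.6% over the list). Highest values fell at ZT3 for 7 (43.8%, against 36.0%), at ZT9 for 6 (37.5%, against 37.8%) and at ZT15 for 3 (18.8%, against 26.3%). Histone deacetylase genes, whose products remove acetyl marks, were not alike. hda101 (GRMZM2G172883) had 0.84, 2.23 and 0.09, and hda110 (GRMZM2G107309) had 1.13, 2.24 and 0.94, while hda113 (GRMZM2G058573) had 1.82, 1.25 and 1.19 and Hda1 (GRMZM2G457889) had 1.41, 1.77 and 1.79. The acetyltransferase gene ham101 (GRMZM2G044126) had 0.98, 2.30 and 0.10. brahma1 (GRMZM2G163849), the ATPase of a nucleosome remodeller, had 1.57, 1.85 and 0.04. These peaks were near input at ZT15 for hda101, ham101 and brahma1. mez1 (GRMZM2G157820), a Polycomb methyltransferase of the E(z) family, was highest at ZT15, with 0.91, 0.34 and 1.68 over its start. Upstream of DML3 (GRMZM5G828460), a gene of the DEMETER-like DNA demethylase family, the values were 2.49, 1.83 and 0.44. ssrp1 (GRMZM2G032252), a histone chaperone subunit, had a peak of 1.85, 0.71 and 0.75 and another of 0.80, 2.11 and 1.15. The single MYB histone genes SMH2 (GRMZM2G087817), with 1.28, 1.11 and 1.26, and smh4 (GRMZM2G108424), with 2.07, 1.38 and 0.61, differed in swing.

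Splicing factor genes had 8 peaks in 6 genes, of which 6 were highest at ZT9 (75%, against 37.8% over the list), and 2 of the 8 had a swing of at least 1 (25%, against 49.6%). SR proteins bind pre-mRNA and guide the choice of splice sites. RS2Z37B (GRMZM2G099317) had 0.86, 2.04 and 1.74, and SCL30 (GRMZM2G065298) had 0.90, 1.75 and 1.36. RSZ28 (GRMZM2G027105) had 0.90, 2.31 and 1.04 inside the gene and a flat peak of 1.51, 1.73 and 1.75 upstream. SR45_2 (GRMZM2G133926) had 1.91, 1.72 and 1.01, and 2.08, 2.40 and 1.61. SR45_1 (GRMZM2G060540) was flat at 1.36, 1.47 and 1.45. For the U1 snRNP protein gene ZMU170K 1 (GRMZM2G113592) the values were 1.75, 2.37 and 2.15.

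Mediator, polymerase and corepressor genes had 9 peaks in 6 genes, with a median swing of 0.73. Med12a (GRMZM2G114459) and Med13 (GRMZM2G053588) encode subunits of the Mediator kinase module. Med12a had 2 morning peaks, with 1.69, 1.42 and 0.72, and 2.28, 0.92 and 0.76, while Med13 had 1.48, 1.82 and 1.57. MED7.2 (GRMZM2G066981) was highest at ZT9, with 1.10, 2.45 and 0.73. RPB1 (GRMZM2G044306), the largest subunit of RNA polymerase II, had 1.42, 1.99 and 1.70. RELK3 (GRMZM2G550865), of the TOPLESS-like corepressor family, had 3 peaks highest at ZT3, ZT9 and ZT15 in turn, with swings of 0.50, 0.66 and 0.73. RELK2 (GRMZM2G030422), of the same family, had 1.0, 0.94 and 1.96.

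Kinase and signalling genes had 11 peaks in 8 genes, with 9 swings of at least 1 (81.8%, against 49.6% over the list) and a median of 1.42. The receptor kinase gene serk2 (GRMZM2G115420) had 2.62 at ZT3, then 0.87 and 0.07, the largest swing of the group at 2.55. ZmHK1 (GRMZM2G151223), a cytokinin receptor kinase, had 1.41, 1.89 and 0.56. SnRK2.8 (GRMZM2G138861) had 0.57, 2.33 and 1.62, and SnRK2.1 (GRMZM2G035809) had 0.52, -0.10 and 1.31, so these relatives of the abscisic acid and osmotic stress pathway differed in time. The mitogen-activated kinase gene mpk6 (GRMZM2G089484) had 0.84, then 1.23 and 2.02. MKK3 (GRMZM2G004468), a kinase that activates such kinases, had a peak of 2.34, 2.27 and 2.01, a peak of 1.24, 1.34 and 2.24 and a peak of 2.13, 0.42 and 0.80. PP2C4 (GRMZM2G177386), a protein phosphatase, had 2.12, 1.98 and 1.28.

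Autophagy genes had 4 peaks in 4 genes, of which 3 were highest at ZT9, against 37.8% over the list. Autophagy delivers cell contents to the vacuole for reuse. atg6 (GRMZM2G092112) had 1.18, 2.00 and -0.37 and atg9 (GRMZM2G035461) a flat 1.33, 1.56 and 1.42. Atg8c (GRMZM2G076826) had 1.11, 1.72 and 0.93, and Atg8b (GRMZM2G419694) had 1.99, 0.67 and 1.61. Genes for protein folding and quality control in the endoplasmic reticulum had 5 peaks in 4 genes. The disulfide isomerase gene pdi4 (GRMZM2G034143) had 2 peaks highest at ZT9, with 0.76, 1.84 and 1.60, and 1.09, 2.30 and 1.64, while pdi2 (GRMZM2G163421) had 2.22, 0.62 and 1.12 upstream. Of the derlin genes, which act in the export of misfolded proteins, der4 (GRMZM2G112609) had -0.41, then 0.59 and 1.76, and derlin1 (GRMZM2G117388) had 1.80, then 1.43 and 0.83.

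Transcription factor genes had 20 peaks in 18 genes, with a median swing of 1.23. Highest values fell at ZT9 for 11 (55%, against 37.8% over the list), at ZT3 for 6 (30%, against 36.0%) and at ZT15 for 3 (15%, against 26.3%). Among the NAC genes, NAC120 (GRMZM2G176677) had 0.42, 1.92 and 0.34 and NAC12 (GRMZM2G125777) had 0.48, 2.14 and 1.09. ZmDREB2A (GRMZM2G006745), a regulator of drought and heat responses, had -0.14, 1.47 and 0.25. GLK15 (GRMZM2G162409) had 0.77, 2.12 and 1.72. The MYB-related gene MYBE1 (GRMZM2G145041) had 2.39, 2.47 and 0.70 upstream. ZT3 peaks included bZIP124 (GRMZM2G151295), with 1.88, 0.26 and 0.55, bZIP110 (GRMZM2G079365), with 1.93, 0.51 and 0.87, and EREB14 (GRMZM2G018398), with 2.19, 1.25 and 0.71. WRKY1 (GRMZM2G398506) had 2.18, 1.49 and 0.82. Swings were smaller at bZIP58 (GRMZM2G149040) with 1.10, 1.20 and 1.56 and bZIP43 (GRMZM2G149150) with 1.06, 1.72 and 1.06. Hox2b (GRMZM2G351018) had peaks of 0.85, 1.66 and 1.20 and of 1.92, 0.34 and 0.39. PBF (GRMZM2G146267), named for the prolamin box, had 1.47, 1.73 and 2.04, and 1.54, 1.94 and 1.24.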

How the data were processed

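The authors trimmed the reads, aligned them with Bowtie to AGPv2 and kept unique concordant pairs without duplicates. They down-sampled the libraries to similar depth and called peaks with MACS2 2.0.1 (version from the submitters' processing notes) against input at p of 0.001. Peaks found in both replicates were kept, the time points were merged, and genes within 10 kb were assigned. The deposited values are log2(ChIP/Input), which the authors normalised. How the replicates were combined is not given in the sources used here. Libraries were equalised in depth, so a peak's error depends on its own reads, which are unknown. The B73 list was read as deposited (3364 peaks, of which no pair overlaps) with Python 3.11.15, pandas 2.3.3 and SciPy 1.17.1. Swing, differences, order and position were computed per peak and tested on simulated lists. A B73 peak met another list where at least 1 bp overlapped. Wilson intervals are at 95%.

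Named peaks were those of 17 genes that the study takes up, the 8 highest, the 4 largest leads at each time point, the 6 largest swings, the 5 flattest at or above 2, all 7 genes with 4 peaks, the 3 genes whose peaks differ most, and genes in groups. Groups by description could not be formed, as the gene table holds symbols only (assembly Zm-B73-REFERENCE-NAM-5.0). Groups by symbol, and genes named within them, were chosen after seeing values, and where an identifier matched several entries the informative symbol was taken. Members and lists were chosen with earlier results of these data known. Probe sequences are the study's designs. Alternatives were centring each time point, only peaks of 2 or more, only peaks with a gene, other limits, a lead of 0.25, only peaks on the gene and 50% reciprocal overlap.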

Additional observations from a re-analysis of the deposited data

How the results depend on the processing

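No paired analysis was possible because each time point has a single combined value that carries no replicate number, and for the same reason no replicate could be left out. Of 62 alternative values, 27 stayed within the Wilson interval of the share first given and 35 did not. The cause of the shifts was not tested beyond the limits that define them. With each time point centred on its median, flat peaks made up 4.31%. ZT3 exceeded ZT9 by at least 1 at 14.6% and the reverse held at 13.2%, ZT9 exceeded ZT15 at 10.6% and the reverse held at 13.8%, and ZT3 exceeded ZT15 at 11.6% and the reverse held at 13.4%. Each of these pairs turned in direction. The share highest at ZT9 was 32.1% and at ZT15 33.4%, the ZT3 share of peaks with no gene 40.5%, and the share of strongly timed peaks among those met in 3 other lists 17.2%.

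With only peaks whose highest value is at least 2, 61.3% had a swing of at least 1 and 2.35% one under 0.25. ZT3 over ZT9 stood at 17.3%, ZT9 over ZT3 at 18.5%, ZT9 over ZT15 at 21.3%, ZT15 over ZT9 at 10.4% and ZT3 over ZT15 at 21.1%. Highest at ZT3 were 38.0% and at ZT9 36.1%, and the ZT3 share was 35.9% inside genes and 40.9% with no gene. With only peaks with a gene, 39.4% were highest at ZT9. Swing limits of 1.5 and 0.5 gave 21.7% and 16.8%. A difference of 0.5 gave 26.7% for ZT3 over ZT9, 31.6% for ZT9 over ZT3, 35.0% for ZT9 over ZT15, 22.2% for ZT15 over ZT9, 31.7% for ZT3 over ZT15 and 23.7% for ZT15 over ZT3. For peaks met in no other list, 61.1% were strongly timed with 50% reciprocal overlap and 61.3% at 700 to 1500 bp, where those met in 3 lists had 17.6%. With a limit of 2.5, 44.9% of strong peaks were highest at ZT15. The share of genes whose peaks all shared a time stayed within its interval under its alternatives, between 39.7% and 45.5%.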
